A study of Homo sapiens with 4 samples.

Results

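The transcripts of 8 red-cell genes were followed in a human megakaryocytic leukemia cell line with reduced GATA1. They were the glycophorin genes GYPB, GYPC and GYPE, the membrane anchor genes ANK1, SLC4A1 and EPB42, the Rh-associated glycoprotein gene RHAG and the erythropoietin receptor gene EPOR. Every non-control probe that the array named for one of these genes was taken, whatever its value, and each probe was kept apart. This gave 14 probes for 8 genes, among 41000 probes for 30499 gene names, and all 14 were among the 40974 probes tested. The cells were Meg01 (also written Meg-01), an established line with megakaryocytic features. The treated groups were 2 stable clones, GATA1 5-13 and GATA1 4-14, each grown from a single colony after infection with a lentivirus carrying a GATA1 shRNA, a short hairpin RNA that lowers the GATA1 transcript. The control, GATA1 Neg, was an uncloned pool that carried a non-targeting shRNA in the same kind of virus, so that all groups had been infected, and the clones differed from the control in being clonal as well as in their shRNA. In the study, infected cells were selected with puromycin before the colonies were grown. No chemotherapy drug was given, and the question here was how the transcripts of these genes in each clone compared with GATA1 Neg. Total RNA of a clone and of GATA1 Neg were hybridized together on 2-colour Agilent arrays, 2 arrays per clone with the dyes exchanged and 4 arrays in all. The extraction text of the labels names clones of another line, CMK, while every other label names Meg01.

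GATA1, a transcription factor with zinc fingers, binds GATA motifs in DNA and is needed for the maturation of red cells and megakaryocytes, which share a common progenitor. In the red cell, the glycophorins are sialic acid-rich surface proteins. Band 3, the anion exchanger encoded by SLC4A1, is held to the spectrin skeleton by ankyrin, the product of ANK1, and the palmitoylated membrane protein encoded by EPB42 binds both. Glycophorin C anchors the skeleton at a separate junction. RHAG carries the RhD and RhCE proteins to the surface. EPOR is the receptor through which erythropoietin signals for the survival of red-cell progenitors.

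The stretches upstream of 4 members that the results below turn on are shown because they hold the kind of motif that the targeted factor binds. Each is the 250 bases before the gene's start, 5′ to 3′ on the gene's strand, from RefSeq on GRCh38.p14, which is not the hg18 build that the array used for its probe positions. Capitals mark every match to the motif AGATAA or its variants AGATAG and, with another first letter, TGATAA or TGATAG, on either strand, and no matches overlapped. The EPOR window lies at chr19:11384315-11384564, minus strand, the RHAG window at chr6:49636840-49637089, minus strand, the EPB42 window at chr15:43221019-43221268, minus strand, and the GYPB window, for the first of 2 listed starts, at chr4:144019381-144019630, minus strand.
EPOR: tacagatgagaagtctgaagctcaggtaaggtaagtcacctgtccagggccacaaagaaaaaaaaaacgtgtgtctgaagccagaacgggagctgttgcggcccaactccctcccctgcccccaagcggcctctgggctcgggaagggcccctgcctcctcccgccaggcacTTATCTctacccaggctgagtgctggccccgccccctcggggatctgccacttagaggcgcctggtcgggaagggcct
RHAG: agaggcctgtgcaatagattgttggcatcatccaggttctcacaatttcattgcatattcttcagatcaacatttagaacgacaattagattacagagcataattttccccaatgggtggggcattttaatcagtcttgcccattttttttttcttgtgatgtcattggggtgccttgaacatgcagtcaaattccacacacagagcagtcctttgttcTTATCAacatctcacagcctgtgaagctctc
EPB42: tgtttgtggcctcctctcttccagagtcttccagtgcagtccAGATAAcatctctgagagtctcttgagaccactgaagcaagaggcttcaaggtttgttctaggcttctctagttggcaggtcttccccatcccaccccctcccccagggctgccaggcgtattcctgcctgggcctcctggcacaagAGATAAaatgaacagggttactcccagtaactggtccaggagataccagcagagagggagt
GYPB: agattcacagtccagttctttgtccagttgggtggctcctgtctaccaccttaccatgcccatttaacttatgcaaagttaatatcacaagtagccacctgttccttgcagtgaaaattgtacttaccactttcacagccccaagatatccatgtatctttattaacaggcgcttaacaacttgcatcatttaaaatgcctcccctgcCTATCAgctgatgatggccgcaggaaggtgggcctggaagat
The EPOR match lay 73 to 78 bases before the start and the RHAG match 26 to 31 bases before it. EPB42 had a match at 56 to 61 bases and another at 203 to 208 bases. GYPB had 1 match at 37 to 42 bases from this start, and 2 in the window of its other listed start. GYPC had 1 match at 59 to 64 bases and GYPE had matches at 40 to 45 and 78 to 83 bases. Each window searched, for the 6 members GYPB, GYPC, GYPE, EPB42, RHAG and EPOR, held at least 1 match, where 22.3% of all 35116 promoter windows of the same length did. The GYPB and GYPE promoters are copies of a common sequence, with 287 identical bases of 294 aligned (97.6%), so that they do not count as separate cases. A match describes letters and not a bound site, and binding was not analysed here. SLC4A1 had no entry in the promoter table, and the ANK1 promoter was not used here, neither searched nor shown.

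The libraries were of like quality. Between 61.6% and 66.4% of the non-control spots were well above background in a channel of an array, 135 to 152 of 43376 such spots per array had an outlier mark, and 0 were saturated. All 4 arrays lay on 1 slide. Log2 ratios are given as clone over GATA1 Neg, and a ratio below 0 is a lower level in the clone. The targeted gene, GATA1 (probe A_24_P374244), gave −0.21 and −0.34 as log2 ratios in GATA1 5-13 and −0.43 and −0.58 in GATA1 4-14, so that its transcript stood at 82.7% and 70.6% of GATA1 Neg. The mean was −0.39 ± 0.16 (SD, n = 2 clones), lower on all 4 arrays, with a limma adjusted p of 0.603. These values rest on a single array probe. The study measured the knockdown by other means, real-time RT-PCR and, for the protein, western blot. By RT-PCR it reports a lower GATA1 transcript in both clones. It also reports in both a loss of protein deeper than the change on this probe, though protein and RNA are unlike measures. Of 18 probes for megakaryocyte markers, 9 were well above background in both RNAs on every array, among them both probes of ITGA2B, a platelet integrin, while those of PF4, VWF and SELP were not well above background on any array. The summed intensity of the megakaryocyte marker probes was 14300 to 14700 in GATA1 5-13, 16800 to 17100 in GATA1 4-14 and 18400 to 19400 in GATA1 Neg. Of 6 granulocyte and monocyte markers, 0 were well above background in both RNAs on every array, and MPO, CSF3R and PRTN3 were so on none. Of 5 lymphocyte marker probes, 3 were well above background in both RNAs on every array. They were those of CD79A and CD7 and CD3E probe A_24_P86968, while CD3E probe A_23_P416747 was so on no array. The lymphocyte marker probes had a summed intensity of 1650 to 1910 over all RNAs.

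The 8 genes differed in direction between clone and control. EPOR and ANK1 were lower on all 4 arrays, RHAG was higher on all 4, and GYPB, GYPC and EPB42 were higher in GATA1 5-13 and lower in GATA1 4-14. No member probe passed an adjusted p of 0.05 in limma's moderated test over both clones, and 0% of all probes tested did. At an unadjusted p of 0.005 in the same limma test, 0 of 14 were lower and 0 higher, where 0.574% and 0.327% of all probes were. The study put this cutoff on p-values from another error model, that of the Rosetta Resolver software. These counts therefore do not say which member probes pass the test of the study. At an unadjusted p under 0.05, 3 of 14 were lower and 1 was higher, where 4.05% and 3.39% of all probes were lower and higher. The 3 lower were EPOR probes A_23_P367899 and A_23_P381954 and ANK1 probe A_24_P162485. By sign alone, 4 of 14 were lower on all 4 arrays and 1 was higher, where 13.4% and 12.8% of all probes were. The 4 lower were those 3 and ANK1 probe A_23_P216108, and probes of 1 gene do not count as separate cases. The median log2 ratio of the 14 probes was 0.01, against −2e-04 for all probes tested, with 0.04 in GATA1 5-13 and −0.11 in GATA1 4-14. Of the 14 probes, 11 were well above background in both RNAs on every array, with at least 1 for each gene. The other 3, A_24_P162483 for ANK1, A_24_P385190 for SLC4A1 and A_24_P914376 for EPOR, were not well above background in either RNA on any array and give no fold.

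**Figure D1:**
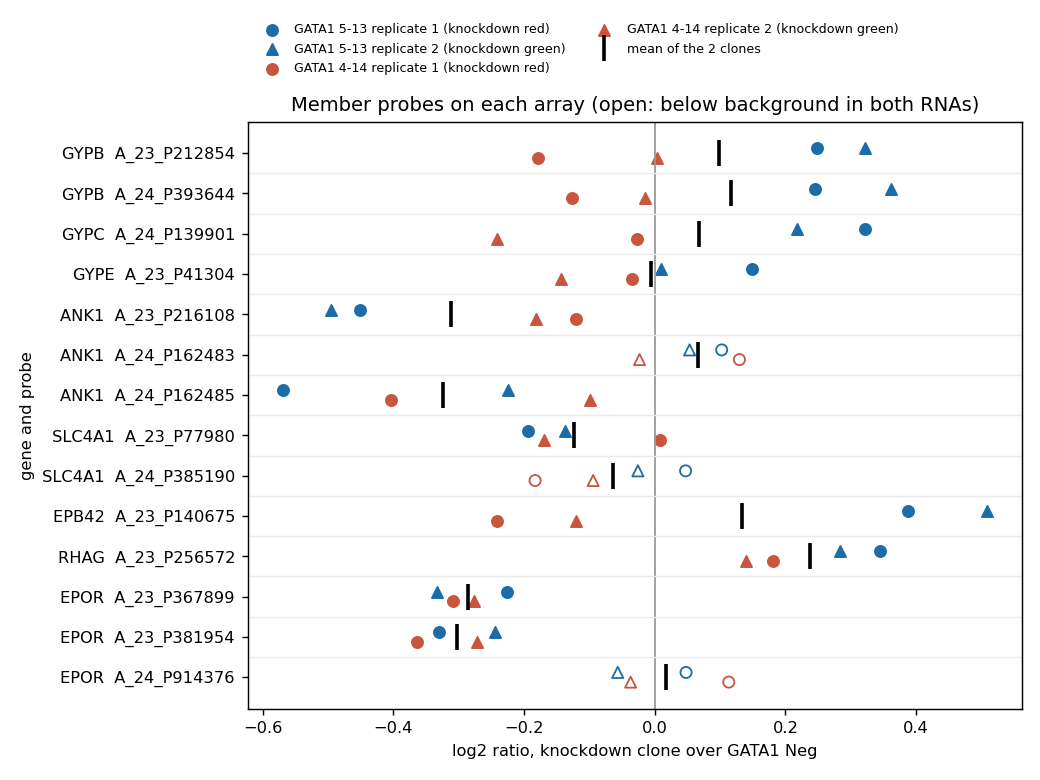
Log2 ratio of clone over GATA1 Neg (horizontal axis) for each of the 14 member probes (rows), 1 symbol per array, with colour for the clone, symbol shape for the dye of the knockdown RNA and a black bar for the mean of the 2 clones. The 4 symbols of the EPOR probes A_23_P367899 and A_23_P381954 sit between −0.36 and −0.23, and the symbols of EPB42 split by clone.

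EPOR, the receptor for erythropoietin, had nearly the same ratio in both clones. Probe A_23_P381954 (hg18 chr19:11349476-11349535, minus strand) had log2 ratios of −0.33 and −0.24 in GATA1 5-13 and of −0.36 and −0.27 in GATA1 4-14. Its normalised intensity was 2439 to 2700 in GATA1 Neg, 2141 to 2147 in GATA1 5-13 and 2021 to 2035 in GATA1 4-14. The transcript stood at 81.1% of GATA1 Neg. The mean log2 ratio was −0.30 ± 0.02 (SD, n = 2 clones), with a 95% interval of −0.47 to −0.13. The limma adjusted p was 0.573.

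Probe A_23_P367899 (hg18 chr19:11349607-11349666, minus strand), gave log2 ratios of −0.23 and −0.33 in GATA1 5-13 and of −0.31 and −0.28 in GATA1 4-14. Its intensity was 1541 to 1654 in GATA1 Neg, 1287 to 1365 in GATA1 5-13 and 1244 to 1365 in GATA1 4-14. The mean was −0.29 ± 0.01 (SD, n = 2 clones), or 82% of GATA1 Neg, with a 95% interval of −0.46 to −0.12. The limma adjusted p was 0.575. The clones differed by 0.01 on this probe and by 0.03 on the other, less than the 0.11 and 0.09 between the 2 arrays of GATA1 5-13 on the same probes. With the 4 arrays entered as 4 values, which counts the dye swaps of a clone as independent, these were the member probes that passed, at limma adjusted p of 0.0283 and 0.0298, where 1.8% of all probes were called lower. The third EPOR probe, A_24_P914376 (hg18 chr19:11352946-11353383), was designed on another transcript record and had 80.7 to 95.7 units in all RNAs, near the background.

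**Figure D2:**
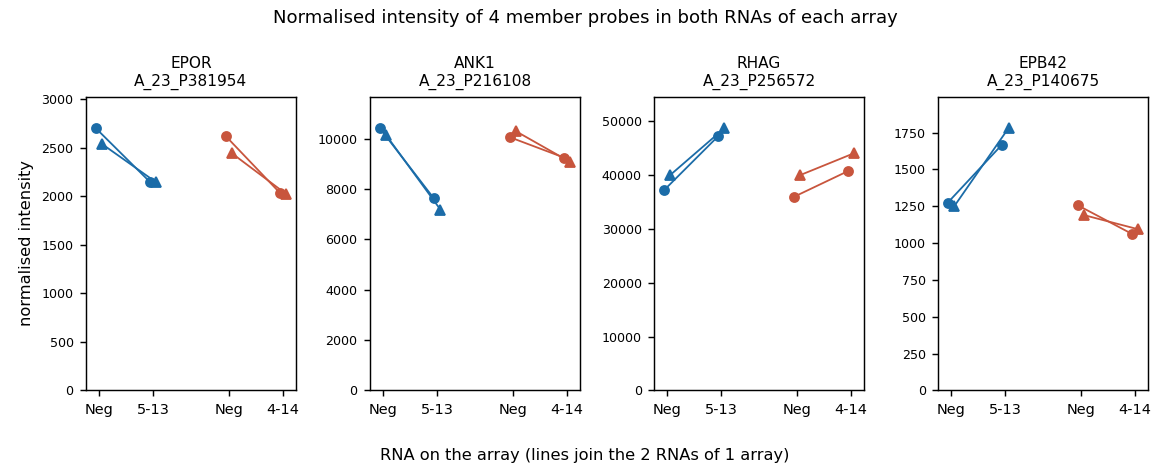
Normalised intensity (vertical axes, linear from 0) of a probe each for EPOR, ANK1, RHAG and EPB42 in the GATA1 Neg RNA and the clone RNA of each of the 4 arrays, with lines joining the 2 RNAs of an array. EPOR was lower in the clone on every line, and EPB42 was higher in GATA1 5-13, at 1668 to 1780 against 1189 to 1275 in GATA1 Neg, and lower in GATA1 4-14.

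ANK1, which ties band 3 to spectrin, was lower on all 4 arrays on both of its measured probes. Probe A_23_P216108 had log2 ratios of −0.45 and −0.50 in GATA1 5-13 and of −0.12 and −0.18 in GATA1 4-14. Its intensity was 10070 to 10430 in GATA1 Neg, 7191 to 7633 in GATA1 5-13 and 9080 to 9260 in GATA1 4-14. The lower ANK1 was in the clone with the higher GATA1 ratio. The mean was −0.31 ± 0.23 (SD, n = 2 clones), or 80.5% of GATA1 Neg, with a 95% interval of −0.65 to 0.02. In limma's test the adjusted p was 0.681.

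Probe A_24_P162485 had the largest mean change among the members. Its log2 ratios were −0.57 and −0.22 in GATA1 5-13 and −0.40 and −0.10 in GATA1 4-14. On both clones the array with the knockdown RNA in red gave the lower ratio, by 0.35 and 0.31, more than the 0.15 between the clone means. Its intensity was 14560 to 17430 in GATA1 Neg, 11590 to 12790 in GATA1 5-13 and 13180 to 13590 in GATA1 4-14. The mean was −0.32 ± 0.10 (SD, n = 2 clones), or 79.9% of GATA1 Neg, with a 95% interval of −0.54 to −0.11. Its adjusted p in limma was 0.595. The 3 ANK1 probes lie within 1052 bases of each other on chromosome 8, and the one not above background, A_24_P162483, had 69.6 to 83.2 units in all RNAs.

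Both EPOR and both ANK1 probes also passed when the arrays were combined by the error that the scanner software gave for each spot, at adjusted p of 0.0309, 0.0488, 0.028 and 0.0409, where 4.31% of all probes were called lower and 4.02% higher. That error is technical and leaves out the spread between clones. No member probe was called higher by it, RHAG having an adjusted p of 0.0774.

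RHAG, the partner of the Rh proteins, was on the other side of the control. Probe A_23_P256572 (hg18 chr6:49681470-49682546, minus strand) had log2 ratios of 0.35 and 0.28 in GATA1 5-13 and of 0.18 and 0.14 in GATA1 4-14. Its intensity was 35940 to 40030 in GATA1 Neg, 47190 to 48730 in GATA1 5-13 and 40730 to 44090 in GATA1 4-14. It was higher in the clone on every array. The mean was 0.24 ± 0.11 (SD, n = 2 clones), or 117.9% of GATA1 Neg, with a 95% interval of 0.02 to 0.46. This gave a limma adjusted p of 0.662.

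The RHD and RHCE genes, whose proteins RHAG accompanies in the membrane, were lower on every array, with mean changes larger than that of any member. RHCE (A_23_P62634) had log2 ratios of −1.94 and −1.87 in GATA1 5-13 and of −0.80 and −0.89 in GATA1 4-14, with a mean of −1.38 ± 0.75 (SD, n = 2 clones). The RHD probe A_24_P135856 had −1.59 and −1.56 in GATA1 5-13 and −0.70 and −0.62 in GATA1 4-14, with a mean of −1.12 ± 0.65 (SD, n = 2 clones). The second RHD probe, A_24_P673333, had a mean of −0.73. All 3 probes were lower on all 4 arrays, at limma adjusted p of 0.607, 0.625 and 0.636. RHD and RHCE are near-identical, so that RNA of either may bind these probes and the genes cannot be separated here. Within the Rh complex, the RHAG transcript was thus above GATA1 Neg on the arrays where those of its partners were below it.

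Band 3 itself was hardly expressed in these cells. The SLC4A1 probe A_23_P77980 (hg18 chr17:39683414-39684093, minus strand) had an intensity of 143.9 to 165.5 in GATA1 Neg, 137.1 to 150.5 in GATA1 5-13 and 142.5 to 144.7 in GATA1 4-14. The lowest signal counted as well above background was 87.4 to 115.7 units, depending on the array and RNA. The log2 ratios were −0.19, −0.14, 0.01 and −0.17 in the order GATA1 5-13 replicates 1 and 2 and GATA1 4-14 replicates 1 and 2. The mean was −0.12 ± 0.06 (SD, n = 2 clones), with a 95% interval of −0.31 to 0.06. In limma's test the adjusted p was 0.713. The value ranged from −0.05 without background correction to −0.28 with either the deposited log ratios or the error-weighted mean, and was −0.08 without GATA1 4-14 replicate 2. The groups overlapped, and a change in either direction of this size was not resolved on so dim a probe. The other SLC4A1 probe, A_24_P385190 (hg18 chr17:39693325-39693384), was at 71 to 82.7 units in all RNAs.

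EPB42, whose protein steadies the tie between band 3 and ankyrin, showed the largest gap between the clones. Probe A_23_P140675 (hg18 chr15:41276798-41276857, minus strand) had log2 ratios of 0.39 and 0.51 in GATA1 5-13 and of −0.24 and −0.12 in GATA1 4-14. Its intensity was 1189 to 1275 in GATA1 Neg, 1668 to 1780 in GATA1 5-13 and 1062 to 1093 in GATA1 4-14. GATA1 5-13 was above and GATA1 4-14 below the control. The clone means differed by 0.63, against 0.12 between the 2 arrays of either clone. The mean of both was 0.13 ± 0.44 (SD, n = 2 clones), with a 95% interval of −0.46 to 0.72. Its adjusted p in limma was 0.891.

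The glycophorin genes split by clone in the same direction. GYPB, which carries the S and s antigens, was read by 2 probes whose positions overlap (hg18 chr4:145138197-145140032 and chr4:145138184-145140019, minus strand). Probe A_24_P393644 had log2 ratios of 0.25 and 0.36 in GATA1 5-13 and of −0.13 and −0.02 in GATA1 4-14, and its intensity was 9702 to 10220 in GATA1 Neg, 11690 to 12570 in GATA1 5-13 and 9360 to 9601 in GATA1 4-14. Probe A_23_P212854 had 0.25 and 0.32 in GATA1 5-13 and −0.18 and 0.003 in GATA1 4-14. GATA1 5-13 was above the control on both probes, and GATA1 4-14 was at or slightly below the control. Their means were 0.12 ± 0.27 and 0.10 ± 0.26 (SD, n = 2 clones). The limma adjusted p were 0.839 and 0.87.

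GYPC, which anchors the skeleton through a protein of the skeleton junction, had log2 ratios of 0.32 and 0.22 in GATA1 5-13 and of −0.03 and −0.24 in GATA1 4-14 (A_24_P139901, hg18 chr2:127170124-127170183, plus strand). Its intensity was 7519 to 8261 in GATA1 Neg, 9523 to 9604 in GATA1 5-13 and 6654 to 7380 in GATA1 4-14. The mean was 0.07 ± 0.29 (SD, n = 2 clones). This gave a limma adjusted p of 0.919. GYPE, a close copy of GYPB with no well-established protein function, had the smallest mean change of the measured members, with 0.15 and 0.01 in GATA1 5-13 and −0.04 and −0.14 in GATA1 4-14 (A_23_P41304, hg18 chr4:145017380-145017439, minus strand). Its mean was −0.01 ± 0.12 (SD, n = 2 clones), with a 95% interval of −0.23 to 0.22. In limma's test the adjusted p was 0.992. GYPB and GYPE are near-identical over long stretches, and RNA of 1 may bind probes of the other.

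In all, 4 of the 14 member probes, A_24_P393644 for GYPB and those of GYPC, GYPE and EPB42, were higher on both arrays of GATA1 5-13 and lower on both of GATA1 4-14, where 8.03% of all probes were. With 1 replicate for each clone the difference between the clones could not be tested. Hemoglobin and other red-cell markers showed the same split. Of 17 erythroid marker probes, 11 were higher on both arrays of GATA1 5-13 and lower on both of GATA1 4-14, with list medians of 0.20 and −0.29. ALAS2, the first enzyme of heme synthesis in red cells, had clone means of 0.67 and −0.40 on probe A_32_P385587, and HBD, a beta-like globin, had 0.35 and −0.11 on probe A_23_P87346. The summed intensity of the erythroid marker probes was 538000 to 543000 in GATA1 5-13, 293000 to 430000 in GATA1 4-14 and 266000 to 485000 in GATA1 Neg. These sums were carried by the brightest globin probes, of which HBG1 (A_23_P64539) had log2 ratios of 1.59 and 0.24 in GATA1 5-13 and of 0.14 and −1.07 in GATA1 4-14, far apart between the dye orientations. None of the erythroid markers on the array was without a signal well above background, although HBE1 was below it in the clones on 1 of its 2 probes. AHSP, the chaperone of free alpha globin, did not follow the split, with clone means of −0.36 and −0.30, though its RNA was well above background in the clones on only 1 of 4 arrays. In whole-culture RNA, fewer cells with red-cell features and less RNA per cell cannot be told apart, and the part of the red-cell markers in the results for the members was not tested.

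**Figure D3:**
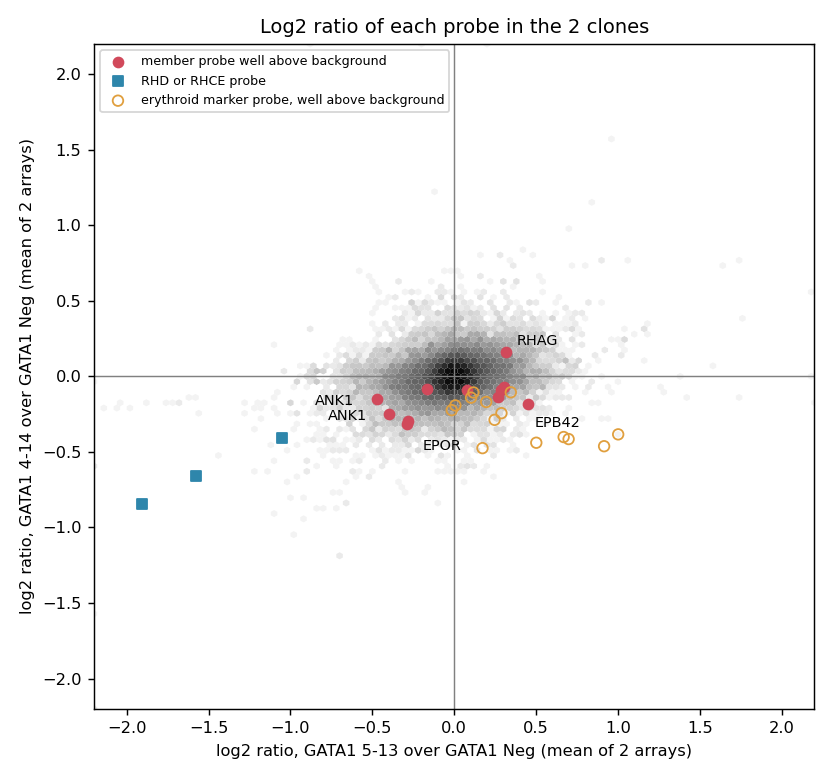
Log2 ratio of each probe in GATA1 5-13 (horizontal axis) and GATA1 4-14 (vertical axis), both over GATA1 Neg and each the mean of 2 arrays, for all probes tested (grey, darker with more probes, values beyond the axes drawn at the edge), the 11 member probes well above background (red), RHD and RHCE probes (blue squares) and erythroid marker probes (open circles). EPOR and ANK1 lie at lower left, RHAG at upper right, and EPB42 with most erythroid markers at lower right.

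The wider membrane skeleton, band 3 and Rh complex list, which leaves out the 8 genes, held 58 probes for 24 genes. Its median log2 ratio was −0.10, against −2e-04 for all probes, and 0 of its probes passed the adjusted test. At an unadjusted p under 0.05, 12 of 58 were lower and 3 higher, against 4.05% and 3.39% of all probes, and 21 were lower and 6 higher on all 4 arrays, against 13.4% and 12.8%. Of the 12 lower, 6 were probes of TPM3, a tropomyosin that many cells use and whose RNA these probes may share, and 3 were the Rh probes, with the others those of TMOD1, SLC2A1 and AQP1. TMOD1, which caps the short actin filaments of the skeleton, had log2 ratios of −0.39 and −0.28 in GATA1 5-13 and of −0.54 and −0.41 in GATA1 4-14 (A_23_P112289). It was lower on all 4 arrays, as were SLC2A1, the glucose transporter, with a mean of −0.39. AQP1, the water channel, was dim. On its lower probe, A_23_P372834, the RNA of the clone was well above background on 1 of 4 arrays and that of GATA1 Neg on 3. On the arrays of GATA1 4-14 the clone was so on 0 and GATA1 Neg on 1, and no fold is given. The other AQP1 probe, A_23_P19894, was not well above background in either RNA on any array. The 3 higher probes were those of adducin, with means of 0.44 and 0.34 for ADD2 and of 0.48 for ADD3 (A_24_P90097).

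SPTB, beta spectrin, was higher on both arrays of GATA1 5-13 and lower on both of GATA1 4-14 on 2 of the 3 probes measured on every array, the largest split being 0.79 and 0.74 against −0.41 and −0.37 on probe A_32_P134968. The limma adjusted p of that SPTB probe was 0.915. SPTB, TMOD1, SLC2A1, AQP1 and the adducins were not taken by the rule for named genes and were chosen after their values were seen.

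The other blood-group and red-cell surface list held 41 probes for 25 genes, with SMIM1 named by no probe. Its median log2 ratio was 0.01, with 0 probes past the adjusted test. At an unadjusted p under 0.05, 2 of 41 were lower and 2 higher, near the 4.05% and 3.39% of all probes. CD99, a leukocyte adhesion protein with a blood-group antigen, was higher on all 4 arrays, with 0.72 and 0.72 in GATA1 5-13 and 0.25 and 0.38 in GATA1 4-14 (A_23_P217510). CD44, a hyaluronan receptor, was lower in GATA1 5-13, at −1.16 and −1.01, and had −0.21 and 0.003 in GATA1 4-14. The 2 lower probes were FUT1, the enzyme that makes the H antigen, with a mean of −1.47 and the RNA of the clone above background on 3 of 4 arrays, and ABCG2, a transporter, with −0.38, both chosen after their values were seen.

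Around the receptor, the erythropoietin signalling list held 47 probes for 28 genes, and its probes were centred near 0. The median log2 ratio was 0.01, with 0 probes past the adjusted test. At an unadjusted p under 0.05, 2 of 47 were lower and 1 higher, near the 4.05% and 3.39% of all probes. JAK2, the kinase that EPOR activates, had log2 ratios of 0.35 and 0.46 in GATA1 5-13 and of 0.08 and 0.19 in GATA1 4-14, with a limma adjusted p of 0.681, and was chosen for its place beside EPOR. IRS2, an adaptor for cytokine and insulin receptors, had −1.92 and −1.76 in GATA1 5-13 and −0.28 and −0.17 in GATA1 4-14 (A_24_P154037). This rests on 1 probe, as the other IRS2 probes were dim. A_24_P207003 was not well above background in either RNA on any array. On A_23_P53838 the RNA of the clone was so on 0 of 4 arrays and that of GATA1 Neg on 2. PIM1, a kinase gene induced by STAT5, had 0.10 and 0.003 in GATA1 5-13 and −0.64 and −0.57 in GATA1 4-14. Both were among the most changed of their list, and each moved mainly in 1 clone, IRS2 in GATA1 5-13 and PIM1 in GATA1 4-14.

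The erythroid transcription factor list held 28 probes for 18 genes, including GATA1. Its median log2 ratio was −0.10, with 0 probes past the adjusted test. At an unadjusted p under 0.05, 4 of 28 were lower and 1 higher, against 4.05% and 3.39% of all probes. LMO2, a bridging partner of GATA1, had log2 ratios of −0.24 and −0.10 in GATA1 5-13 and of −0.81 and −0.70 in GATA1 4-14. Besides GATA1, the lower probes were both of GATA2, with means of −0.35 and −0.25, and KLF3 with −0.23, and the higher was BCL11A with 0.24, these being chosen after their values were seen. KLF1, the red-cell factor that many membrane genes depend on, had 0.16 and −0.15 in GATA1 5-13 and −0.08 and −0.30 in GATA1 4-14, within the spread between arrays in the first clone.

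**Figure D4:**
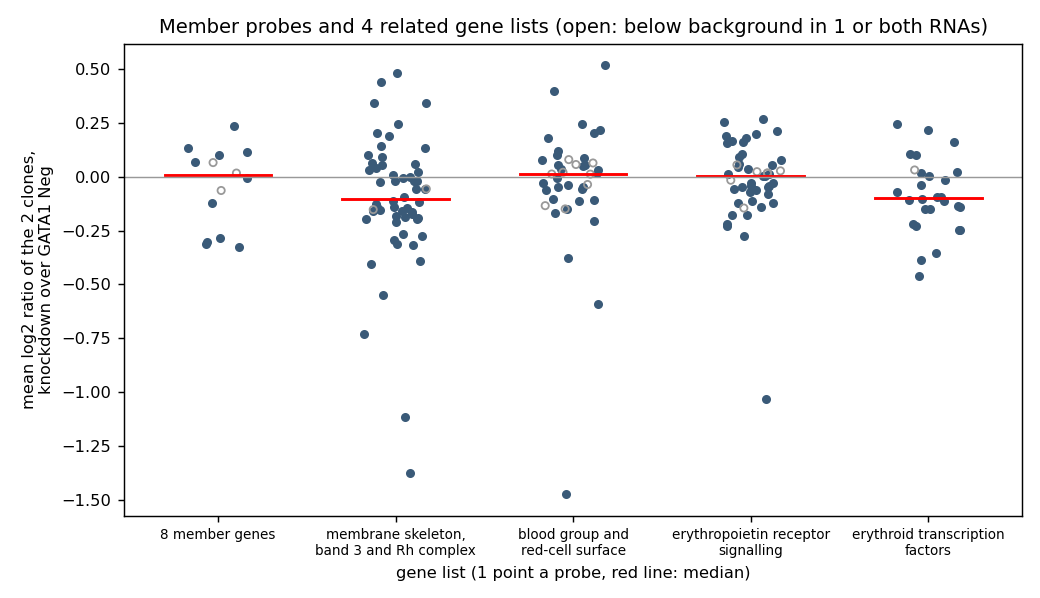
Mean log2 ratio of the 2 clones over GATA1 Neg (vertical axis) for the probes of the 8 genes and of 4 related lists (horizontal axis), 1 point per probe, with a red line at the list median and open points for probes below background in 1 or both RNAs. The members span −0.32 to 0.24 around a median of 0.01, and the lowest points of the membrane list are RHCE and RHD.

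Among 23793 probes of other genes well above background in both RNAs on every array, the closest to ANK1 probe A_24_P162485 over the 4 arrays were those of PTTG1IP, BC107765 and HDAC2, at Euclidean distances of 0.098, 0.101 and 0.105 in log2 units. HDAC2, for example, had −0.54 and −0.23 in GATA1 5-13 and −0.32 and −0.16 in GATA1 4-14. All 3 shared with it the lower ratio on the array with the knockdown RNA in red in both clones, which follows from their choice as the closest probes.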

How the data were processed

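On each array, GATA1 Neg RNA and the RNA of a clone carried opposite dyes (Alexa555 in green, Alexa647 in red), with the clone in red on replicate 1 and in green on replicate 2. The authors deposited scanner output of Feature Extraction 9.5.3.1 with mean spot intensity and median local background, not corrected, and a log10 ratio with its error, made from background-subtracted and dye-normalized signals. A deposited table of log10 ratios held the same values turned to clone over control, within 4.97e-06, each column with a median of 0. Other columns were not used.

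The deposited intensities were turned into log2 ratios by limma 3.58.1 under R 4.3.3 (normexp with an offset of 50, loess within each array). Controls and outlier-marked spots were dropped, replicate spots of a probe were averaged, and after the sign was turned each clone's 2 arrays were averaged, since they are taken as a dye swap of 1 pair of RNAs. The clone average was then set against 0 in limma's moderated two-sided test, adjusted by Benjamini-Hochberg across 40974 probes, at an adjusted p of 0.05 and beside it an unadjusted p of 0.005. GATA1 Neg was on every array, so its own spread was left out. The p-values measure the spread between the 2 clones, and the number of clones limits the precision. Intensities in the text are per channel after scaling between arrays, and their ranges are over arrays. A probe counts as above background by the scanner's own mark. Only the moderated test was tried on simulated data, with changes far larger than those of the members, and the other steps were not.

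Genes were named as on the array. Positions of probes are on hg18 as the files give them, and exon or intron was not given in the sources used here. Probe sequences were not used here. Named are every member probe, GATA1, of each list the probes past an unadjusted p of 0.005 with the same sign on all 4 arrays or, as here with none, the 2 of largest mean change among those well above background, and the 3 probes closest to the member of largest mean change. Other genes in the text, among them the cell type markers, KLF1 and the second RHD probe, fall outside this rule and were chosen after their values were seen. The members and lists were chosen with earlier results of these data known. Alternatives tried were no background correction, the deposited log ratios, median centring, dim probes filtered out, outliers retained, a trend with intensity, the 4 arrays as 4 values with and without the replicate number as a block, an error-weighted mean, and leaving out each array or clone.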

Additional observations from a re-analysis of the deposited data

Results flagged for a closer look

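The ratios of 4 member probes lay on opposite sides of 0 in the clones, on both arrays of each, and the difference was not tested, because each clone is 1 replicate. As GATA1 4-14 minus GATA1 5-13, the difference in log2 ratio was −0.629 for EPB42 (A_23_P140675), −0.4037 for GYPC (A_24_P139901), −0.3749 for GYPB (A_24_P393644) and −0.1694 for GYPE (A_23_P41304). The second GYPB probe, A_23_P212854, differed by −0.3734 but had a ratio of 0.003 on 1 array of GATA1 4-14. For each probe the difference was larger than the gap between the 2 arrays of either clone on that probe, and these probes were picked for their opposite signs on every array.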

How the results depend on the processing

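No member probe was called by the adjusted test, and this count became 2 with the 4 arrays as 4 values and 4 with the error-weighted mean. The count lower at an unadjusted p of 0.005, 0 in the main test, became 2 without background correction, 2 with the 4 arrays as 4 values, 3 with the replicate number as a block and 4 with the error-weighted mean. The count higher became 1 with the 4 arrays as 4 values. Leaving out arrays or clones moved the median log2 ratio of the 14 probes between −0.112 (without GATA1 5-13) and 0.0443 (without GATA1 4-14). Without GATA1 5-13, a single clone with no test, the ratio changed sign for GYPB (−0.0879 and −0.0711), GYPC (−0.134) and EPB42 (−0.181), against 0.2855, 0.3038, 0.2697 and 0.448 without GATA1 4-14. GYPE turned from −0.0052 to 0.0301 with median centring and ranged from −0.0899 to 0.0795 when arrays or clones were left out, being positive without GATA1 5-13 replicate 2 (0.0298), without GATA1 4-14 replicate 2 (0.0219) and without GATA1 4-14. The measured probes of EPOR, ANK1, RHAG and SLC4A1 kept their direction in every alternative run, and the 3 probes at background were not followed. Arrays with the same replicate number share a dye orientation, and their deviations from the clone means correlated at 0.773, but with 2 pairs the numbers were not taken to pair the samples. With the block the adjusted call count stayed at 0. The cause of these changes was not tested. Of the 14 probes, 3 lay at background, which limits what can be read from them.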
